A study of Homo sapiens with 9 samples.

Results

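Kinesins are motor proteins that walk along or take apart microtubules, and here their genes were examined for contacts of the splicing factor SF3B1 with their RNA. The members were the protein-coding genes whose symbol is KIF followed by a digit or the letter C, which gave 42 of 20037 protein-coding genes. A binding site was counted for a gene when its centre fell in the RefSeq span of the gene on GRCh38 and on the strand of the gene. These genes held 488 of the 96852 sites in the list, or 0.504%. By textbook role, 14 members were classed as mitotic, 15 as transport motors and 13 as other kinesins. The classes were set with earlier results of these data known.

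The sites came from K562, an established human leukaemia line, by iCLIP, a method that fixes proteins to RNA with ultraviolet light, pulls one protein down with an antibody and reads the nucleotide it was bound to. The series held 9 samples. SF3B1 was precipitated from 3 samples of SF3B1 wt/wt cells and from 2 of SF3B1 K700E/wt cells, both lines from Horizon Discovery, and U2AF2 from 4 samples of SF3B1 wt/wt cells from ATCC, and all samples were crosslinked. The labels attach the one list used here to the 3 wt/wt SF3B1 samples, whereas its header speaks of reproducibility in either condition, so no site is assigned to a genotype below. Neither K700E nor U2AF2 was compared, as no table for them was used here. The sites come with no read number and no value per sample, so depth is unknown, no spread between replicates can be given, and the comparisons between gene groups below are descriptions without a test. RNA abundance was not measured either, so absence of sites and scarcity of the transcript cannot be told apart.

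SF3B1 is the large subunit at the core of the U2 particle of the spliceosome, which recognises the branch point of an intron before the 3′ splice site is used. It therefore meets mainly RNA that is not yet spliced. Mitotic kinesins build the spindle, move and align chromosomes and complete cell division, and their genes are switched on in dividing cells. Transport kinesins carry vesicles, organelles and protein complexes, and several of them are best known from neurons.

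Sites were found in 22 of the 42 kinesin genes, or 52.4% (95% Wilson interval 37.7% to 66.6%), against a background of 38.0% of all protein-coding genes. Of the mitotic kinesins, 12 of 14 had a site, or 85.7% (60.1% to 96.0%). With KIF2A classed as mitotic too, it was 12 of 15, or 80.0% (54.8% to 93.0%). Of the transport kinesins, 8 of 15 had one, or 53.3% (30.1% to 75.2%), and of the other kinesins 2 of 13, or 15.4% (4.33% to 42.2%). These intervals cover counting over genes only, and no test of a difference between the classes, or from the background, was made. At least 10 sites were present in 10 mitotic, 4 transport and 1 of the other kinesin genes, against a background of 14.8% of protein-coding genes.

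**Figure D1:**
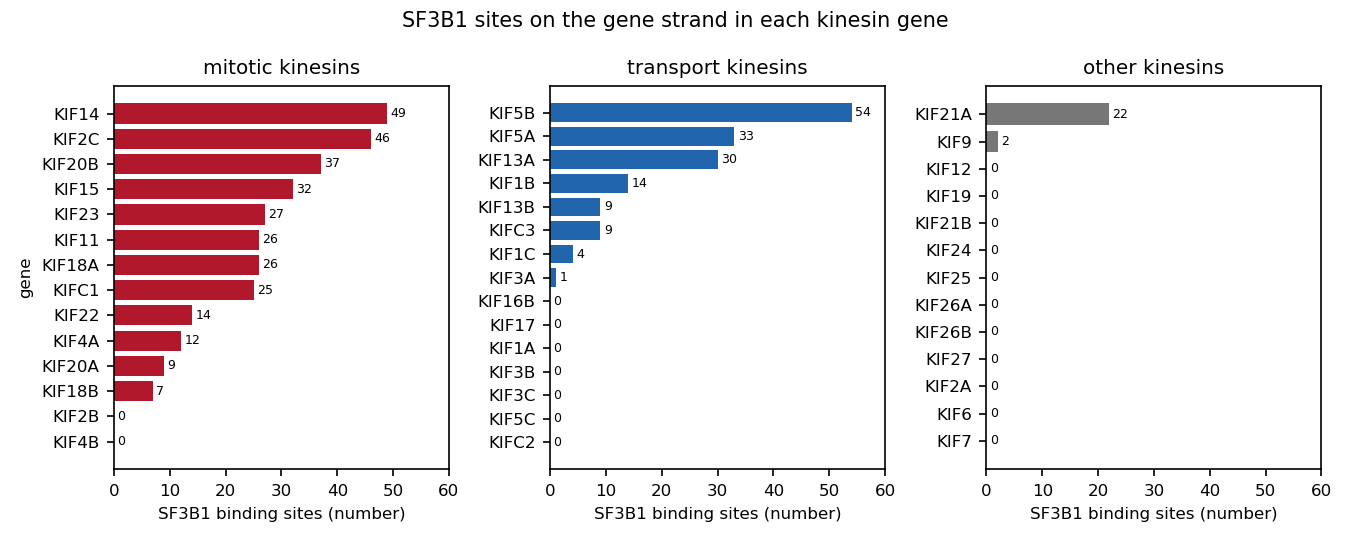
Number of SF3B1 binding sites (horizontal axis) in each of the 42 kinesin genes (vertical axis), with mitotic, transport and other kinesins in separate panels. In the mitotic panel 12 of 14 bars are above 0, while 7 transport and 11 other kinesins stand at 0.

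The mitotic genes with sites held from 7 to 49 sites with a median of 26, and together 310 of the 488 sites. The 8 transport genes with sites ranged from 1 to 54 with a median of 11.5 and held 154. The median of all protein-coding genes with sites was 7. Mitotic genes were shorter, with a median span of 31.0 kb against 57.4 kb for transport genes, those at 0 included. Among genes with a site the medians were 48.2 kb and 76.7 kb. Per length, the median density was 0.606 sites per kb in mitotic genes with a site, 0.109 in such transport genes and 0.199 in all such protein-coding genes. The binomial interval of the median over genes, of at least 95%, ran from 0.299 to 1.05 in the mitotic class. In the transport class it ran from 0.0205 to 1.14. The transport interval is the full range of its 8 genes with a site, and it holds all of the mitotic interval. Among genes of 20 to 200 kb, 9 of 9 mitotic, 7 of 12 transport and 2 of 10 other kinesins had a site, beside 49.9% of all protein-coding genes of that length. The median number of sites in these genes, those at 0 included, was 27 for mitotic and 2.5 for transport kinesins. For all protein-coding genes of that length it was 0.

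**Figure D2:**
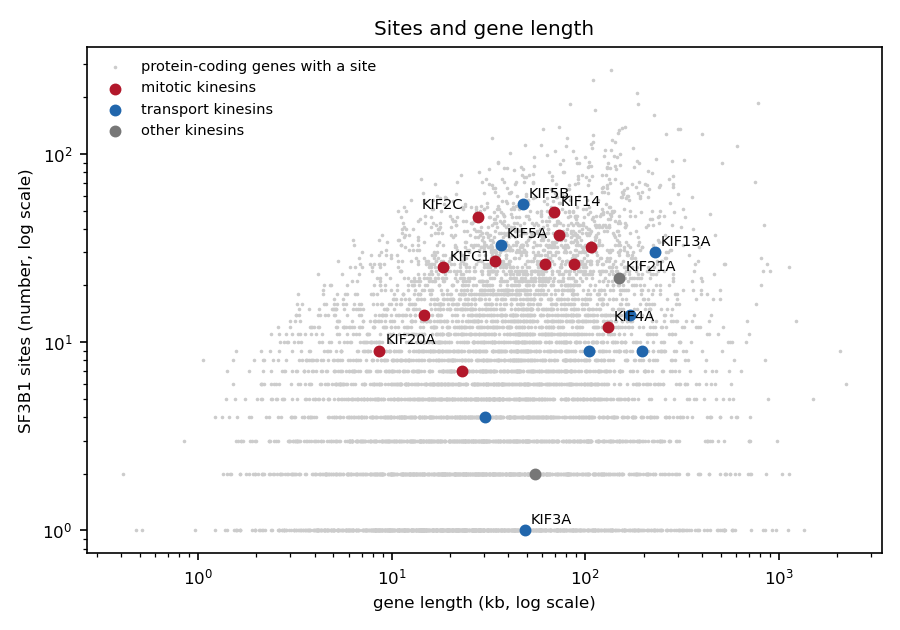
Gene length in kb (horizontal log axis) against the number of SF3B1 sites (vertical log axis) for protein-coding genes with a site (small grey points) and for the 22 kinesin genes with a site (large points, coloured by class). KIF2C, with 46 sites in 27.9 kb, and KIF5B, with 54 in 47.4 kb, lie high for their length, and KIF3A lies at 1 site.

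Among the motors that set up the bipolar spindle, KIF11, which slides microtubules to push the poles apart, had 26 sites. KIF15, which can take over part of that task, had 32 sites over a longer gene of 107 kb. KIFC1, a minus-end-directed motor that gathers microtubules at the poles, had 25 sites in only 18.4 kb. These 3 genes had similar counts, and per length they ranged from 0.299 sites per kb in KIF15 to 1.36 in KIFC1. In KIF11 the 26 sites formed 15 clusters when neighbours at most 60 nt apart were joined. The largest held 5 sites at chr10:92632435-92632476 on the plus strand. In KIFC1 every site lay in the last part of the gene, from 63.9% of its length onward, and the largest cluster held 5 sites at chr6:33406124-33406180.

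Among the motors that handle chromosomes and microtubule ends, KIF2C, a microtubule depolymerase at centromeres, had 46 sites. At 1.65 sites per kb it had the highest density of all kinesin genes, above that of 94.4% of protein-coding genes with a site. The sites of KIF2C were mostly single. They formed 36 clusters, 29 of them of 1 site, and 8 of the 46 sites had another site 25 to 45 nt away. KIF18A, which damps the movements of chromosomes at the spindle equator, had 26 sites, 25 of which lay in the stretch from 11.8% to 52.3% of the gene. Its relative KIF18B, which limits the length of astral microtubules, had 7 sites, the fewest of the mitotic genes with a site, and none had a partner 25 to 45 nt away.

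The chromatin-binding kinesins KIF22 and KIF4A, which push chromosome arms away from the poles or organise them, had 14 and 12 sites. KIF22 spans 14.6 kb and carried 7 of its 14 sites in the last 10% of the gene. KIF4A spans 131 kb and had 0.0918 sites per kb, the lowest density of the mitotic genes with a site. Its 12 sites lay in 5 clusters on the plus strand. A cluster of 3 sites lay at chrX:70299045-70299095, with steps of 38 and 8 nt from site to site, and another of 3 at chrX:70333577-70333620, with steps of 32 and 7 nt. A cluster of 4 sites at chrX:70341753-70341791 and single sites at chrX:70302249-70302253 and chrX:70395657-70395661 made up the rest. After 39.5% of the gene a stretch of 53870 nt separated the last of the clusters from the final single site.

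Among the motors of cell division itself, KIF14, which works with citron kinase at the midbody, had 49 sites, the most of any mitotic kinesin and more than 98.6% of protein-coding genes. In KIF14, 20 of the 49 sites lay in the first 10% of the gene. KIF20B, another midbody kinesin, had 37 sites. KIF23, the motor of the centralspindlin complex and a gene mutated in an inherited anaemia of red cell precursors, had 27, of which 11 lay in the last 10% of the gene. KIF20A, which brings the Aurora B complex to the central spindle, had 9 sites in 8.61 kb. The 9 sites of KIF20A started at chr5:138181561-138181565 and ended at chr5:138186244-138186248, and 3 of them formed one cluster with steps of 7 and 37 nt.

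The 2 mitotic kinesins without a site, KIF2B and KIF4B, had the shortest spans of all kinesin genes, 2.27 kb and 4.39 kb. KIF4B is a near copy of KIF4A, so reads that fit both cannot be placed with certainty, and the handling of such reads is not given in the sources used here. KIF2C and KIF2B, a pair of related depolymerases, stood at 46 and 0 sites. The depolymerase KIF2A, classed here with the other kinesins, also had 0, in a span of 84.8 kb. Exon positions were not used here, so whether KIF2B and KIF4B have introns for SF3B1 to meet was not examined.

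Among transport motors, the conventional kinesin heavy chains differed widely. KIF5B, the heavy chain found in most tissues, had 54 sites in 30 clusters, the most of all 42 genes. A long non-coding RNA gene, LOC107984219, overlaps the 3′ part of KIF5B, and 19 of the 54 sites also lay in its span. KIF5A, known mainly as a neuronal heavy chain, had 33 sites, and KIF5C, the other neuronal form, had 0 in 152 kb. In KIF5A the sites started at chr12:57563384-57563388, 36.5% into the gene, and continued to 92.2%. The strand of KIF5A was taken from the sites themselves, all 33 of which were on the plus strand.

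KIF13A, an endosome and vesicle motor, had 30 sites in 229 kb. The first site lay at 39.1% of the gene, 29 of the 30 from 57.5% onward, and 18 in the last 10%. One cluster there held 5 sites at chr6:17780902-17780984 on the minus strand. Its relative KIF13B had 9 sites in 196 kb, 3 of them in one cluster. In the KIF1 family of vesicle motors, KIF1B, a carrier of mitochondria and vesicles, had 14 sites and KIF1C had 4, all within the first 29.4% of the gene. KIF1A, a carrier of synaptic vesicle precursors, had 0 in 108 kb.

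The subunits of the heterotrimeric motor that serves cilia and vesicles had almost none. KIF3A had 1 site, at chr5:132703669-132703673, and KIF3B and KIF3C had 0. The endosome motor KIF16B, the dendritic and ciliary motor KIF17 and the minus-end-directed KIFC2 also had 0. KIF16B had none in a span of 301 kb, the longest of the transport genes.

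KIFC3, another minus-end-directed motor, had 9 sites on the minus strand, and it is the member whose sites can be shown with their sequence. A cluster of 3 sites at chr16:57772300-57772344 lay wholly inside the hairpin of MIR6772, a microRNA gene within KIFC3 at chr16:57772289-57772352 on the same strand. The hairpin sequence from RefSeq (GRCh38.p14), 5′ to 3′ along the RNA, is shown because it is the only kinesin stretch with sites whose letters were at hand, and the capitals mark the 5 nt of each site.
MIR6772 hairpin: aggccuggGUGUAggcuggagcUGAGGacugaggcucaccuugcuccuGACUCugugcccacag

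The 3 sites covered bases 9 to 13, 23 to 27 and 49 to 53 of the 64 bases. Their centres lay 53, 39 and 13 nt before the last base of the hairpin. The steps between centres were 14 and 26 nt. In the last 20 bases, 65% were pyrimidines, and the hairpin ended in cag. Introns usually end in ag, but no exon positions were used here, so whether the hairpin ends at a splice site was not examined. Both mature microRNAs of this hairpin touched a site. They are shown with the seed, bases 2 to 8, in capitals.
hsa-miR-6772-5p: uGGGUGUAggcuggagcugagg
hsa-miR-6772-3p: uUGCUCCUgacucugugcccaca

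The first site lay within the seed of the 5p form, the next covered its last bases, and the third lay just after the seed of the 3p form. The RNA of KIFC3 carries the same letters as the hairpin, so the sites cannot be assigned to one or the other. Of 1562 hairpins in the sequence table, 35 or 2.24% held an SF3B1 site on their strand. The hairpins of MIR564, in KIF15, and MIR610, in the span of KIF18A on the opposite strand, held 0. One of the 7 sites of KIF18B lay in the span of another microRNA gene, MIR6783.

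Of the kinesins outside both classes, 2 had sites. KIF21A, which restrains microtubule growth, had 22 sites, all in the 3′ part of its 150 kb from 53.3% onward, and 6 of them also lay in the span of the long non-coding RNA gene LOC101927019. KIF9, a kinesin of motile cilia, had 2 sites, at chr3:47277431-47277435 and chr3:47275546-47275550. The other 11 had 0. They were the depolymerase KIF2A, the ciliary or hedgehog-linked KIF6, KIF7, KIF19, KIF24 and KIF27, the KIF21A relative KIF21B, and KIF12, KIF25, KIF26A and KIF26B. KIF26B had no site in 554 kb. The span of KIF7 did contain 10 sites on the plus strand, opposite to the gene, and all 10 lay in the overlapping gene TICRR. No other kinesin gene had a site on the opposite strand. None of the 488 sites was shared with a second protein-coding gene on its strand.

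Sites were placed unevenly along the genes. Across all kinesins the last 10% of the gene held 13.5% of the sites (10.8% to 16.8%) and the first 10% held 5.74% (4.00% to 8.17%). Over all protein-coding genes these shares were 13.5% and 4.63%. Without KIF14 the first 10% of all kinesins held 1.82% (0.926% to 3.55%), so that the share lay above that of all genes with KIF14 and below it without. In mitotic genes the last 10% held 10.0% and the first 10% held 8.39%, but the latter rested on KIF14, without which it was 2.30% (1.06% to 4.92%). Without KIF23 the mitotic share in the last 10% was 7.07% (4.62% to 10.7%). In transport genes the last 10% held 21.4% and the first 10% held 1 of 154 sites. The share in the last 10% rested on KIF13A and was 12.1% (7.47% to 19.0%) without it. The span of a gene is the outermost in RefSeq, so a start or end used in K562 can lie inside it.

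**Figure D3:**
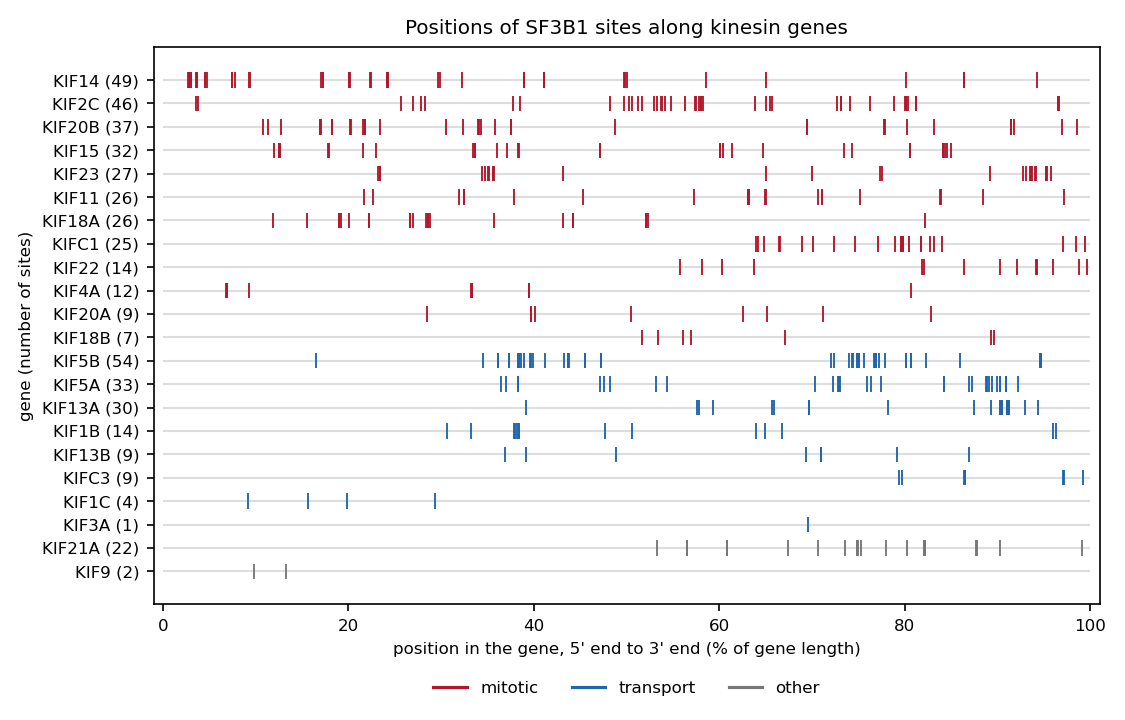
Position of each SF3B1 site as a percentage of gene length from the 5′ to the 3′ end (horizontal axis) in the 22 kinesin genes with a site (vertical axis, number of sites in parentheses, coloured by class). Ticks of KIF14 reach back to 2.69% of the gene, whereas the first ticks of KIFC1, KIFC3 and KIF21A stand at 63.9%, 79.4% and 53.3%.

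The spacing of sites in kinesin genes was described with the spans that mark paired contacts in the whole list. There were 110 pairs of sites 25 to 45 nt apart and 23 pairs 46 to 66 nt apart, a ratio of 4.78, against 3.59 over all protein-coding genes. The nearer span had more pairs in 18 genes and fewer in 0, and 4 genes had no pair in either. That span marks paired contacts in the whole list, which includes the kinesin sites. No such count by gene was made over all protein-coding genes. Leaving out KIF11 gave the lowest ratio, 4.30, and leaving out KIF14, which held 9 of the pairs in the farther span, gave the highest, 6.93. At least 1 partner at 25 to 45 nt was found for 168 of the 488 sites, or 34.4% (30.3% to 38.7%), close to the 36.5% over all protein-coding genes. The mitotic share was 36.8% and the transport share 30.5%. Clusters at most 60 nt wide from neighbour to neighbour numbered 326. Of these, 228 held 1 site and 4 held 5 sites, in KIF11, KIFC1, KIF5B and KIF13A.

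The layout within these clusters can be followed in single genes. In KIF11 a cluster of 4 sites at chr10:92613319-92613367 had steps of 8, 30 and 6 nt, and in KIF18A one at chr11:28091517-28091561 had steps of 7, 26 and 7 nt. In both, a pair of near neighbours was followed after a wider step by another pair. KIF5B showed the same order at chr10:32038215-32038266, with steps of 6, 29 and 12 nt. The 5 sites of KIF5B at chr10:32018165-32018203 instead had steps of 7, 12, 10 and 5 nt, with no wide step. Of the 12 clusters of 4 sites in kinesin genes, 8 had the widest step in the middle, and 4 had a middle step of 25 to 45 nt between outer steps of at most 12 nt. These clusters and limits were chosen after the steps were seen, and no such count was made over the clusters of all protein-coding genes. At 140 to 180 nt there were 60 pairs in kinesin genes, and at 60 to 100 nt there were 28, a ratio of 2.14 beside 1.72 over all protein-coding genes. The ratio was 2.47 in mitotic genes, from 47 and 19 pairs, and 1.33 in transport genes, from only 12 and 9 pairs. A difference between the classes was not tested. Over all kinesins the ratio ranged from 1.85 without KIF23 to 2.60 without KIF2C. Of the 22 kinesin genes with sites, 8 had more pairs at the longer distance, 3 had fewer, 2 had equal numbers and 9 had no pair at either. This count by gene was likewise not made over all protein-coding genes.

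**Figure D4:**
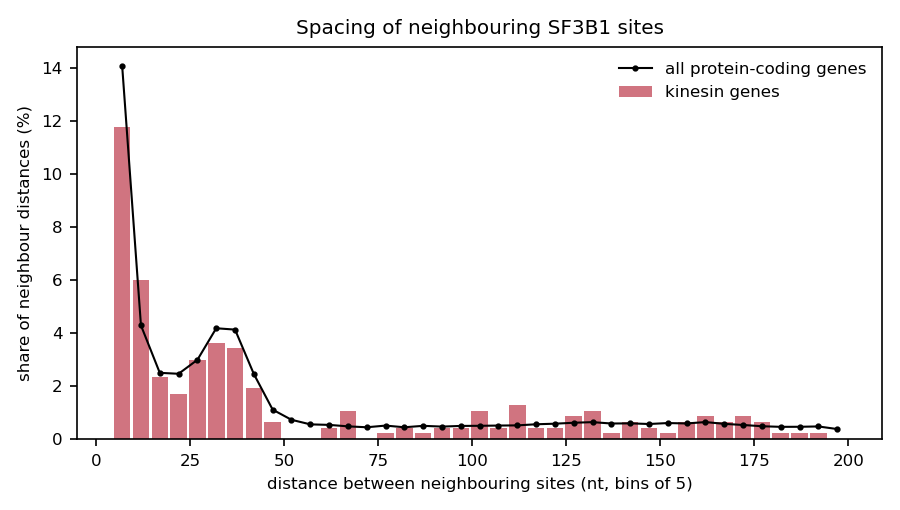
Share of distances between neighbouring sites (vertical axis, %) by distance in bins of 5 nt (horizontal axis), for kinesin genes (bars, 466 distances in all) and all protein-coding genes (line). Both are highest at 5 to 9 nt and rise again between 25 and 44 nt; the kinesin bars at 50 to 59 nt are at 0.

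The promoters of the classes were compared as a property that the choice of members did not use. Promoters were listed by RefSeq for 14 mitotic, 11 transport and 9 other kinesins, and the 250 bases upstream of each start were searched on both strands. The letters TTTGAA, the core of an element known from genes that are active late in the cell cycle, were found in 5 of 14 mitotic genes. They were found in 1 of 11 transport genes, 0 of 9 other kinesins and 14.2% of all protein-coding genes with a listed promoter. The letters CCAAT, the core of the element bound by NF-Y, were found in 11 of 14 mitotic, 4 of 11 transport and 3 of 9 other kinesins, and in 40.2% of all. Each motif was searched apart from the other, and whether their matches share bases was not examined. Some genes have several listed starts and so more letters to match. The 6 kinesin stretches are shown because they place the TTTGAA letters relative to the start, with the match in capitals, as TTTGAA or as TTCAAA where it is read on the other strand.
KIF4A, chrX:70290058-70290087, plus strand: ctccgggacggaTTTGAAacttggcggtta
KIF11, chr10:92593090-92593119, plus strand: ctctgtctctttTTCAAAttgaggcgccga
KIF15, chr3:44761747-44761776, plus strand: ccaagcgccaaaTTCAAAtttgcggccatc
KIF18A, chr11:28108157-28108186, minus strand: gctgaggaaagtggcttgggTTTGAAtatt
KIF23, chr15:69414282-69414311, plus strand: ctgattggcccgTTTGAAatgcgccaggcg
KIF5B, chr10:32056548-32056577, minus strand: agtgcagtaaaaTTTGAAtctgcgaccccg

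In the 5 mitotic genes the match ended 4 to 49 bases before the listed start, and in the transport gene KIF5B 134 bases before it. A match of letters is a description and shows no bound factor. All 5 mitotic genes with the match had sites, as had 7 of the 9 mitotic genes without it.

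Genes that work with kinesins were taken from lists of known partners. Of 16 mitotic partners, 15 had a site, with a median of 18 sites in those, and 12 had at least 10. Of all protein-coding genes 38.0% had a site, with a median of 7 in those, and 14.8% had at least 10. ECT2, which activates the contractile ring, and TPX2, a spindle assembly factor that binds KIF11, had 33 each. RACGAP1, which pairs with KIF23 in centralspindlin, had 25, and PRC1, the partner of KIF4A and KIF14 on the central spindle, had 4. The exception was NUSAP1 with 0. Of 15 transport partners, 12 had a site, with a median of 11.5. The scaffold SPAG9 had 51 and the kinesin receptor KTN1 had 40. The kinesin light chains had fewer sites than the heavy chains KIF5B with 54 and KIF5A with 33, but the heavy chain KIF5C had 0. KLC1 had 7, the median of all protein-coding genes with a site, KLC2 and KLC4 had 1 each and KLC3 had 0. In the span of KLC3, 5 sites lay on the opposite strand. KIFAP3, the non-motor subunit that joins KIF3A and KIF3B, had 4. Of the kinesins without a KIF symbol, CENPE, the kinetochore motor, had 39 sites and STARD9 had 14. RACGAP1, PRC1, NUSAP1, the light chains and KIFAP3 were chosen after their values were seen.

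The labels describe the tissue of origin as chronic lymphoid leukaemia, whereas K562 is known as a chronic myeloid leukaemia line with erythroid features. Among all protein-coding genes 38.0% had a site. Of 8 erythroid markers 4 (50.0%, 21.5% to 78.5%) had sites, namely TFRC with 121, TAL1 with 17, GATA1 with 6 and EPOR with 3, and the short globin genes HBG1, HBG2 and HBE1 and KLF1 had 0. Of 8 lymphoid markers 1 (12.5%, 2.24% to 47.1%) had sites, PTPRC with 28, a gene of all white blood cells, and the B and T cell markers CD79A, CD79B, PAX5, MS4A1, CD3E, CD3D and LCK had 0. Both intervals contain the background, and nothing on the identity of the line is read from these counts.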

How the data were processed

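The deposited list gives SF3B1 binding sites in BED form with a score column that is 0 in every row. Per the file headers, the authors kept merged 5 nt sites that all replicates of one or the other condition shared. The submitters' processing notes name STAR 2.6.1b and 2.7.3a, UMI-tools 1.0.0, bedtools 2.27.1 and FastQC 0.11.8, with builds GRCh38.p10 and GRCh38.p12. The site caller and its thresholds are not given in the sources used here. Positions were converted to count from 1. Gene spans came from RefSeq GRCh38.p14, without exons. The strand of a gene came from the RefSeq promoter table (15843 genes, 34 of 42 kinesins), otherwise from the strand with more sites (KIF5A, KIF13B, KIFC3). The remaining 5 kinesins had neither a listed strand nor a site on either strand. Shares have 95% Wilson intervals, which cover counting only. 2 of the marker genes are not reported here. Members, classes and lists were chosen with earlier results of these data known. The text names the 5 mitotic, 5 transport and 3 other kinesins with the most sites, those with 0 sites and the top 2 genes of each partner list, and the other members so that each is accounted for. A brute-force lookup of 500 sites gave the same genes for all 500; 400 simulated paired sites in 200 genes were all found. Software was Python 3.11.15 with pandas 2.3.3, NumPy 2.4.6, SciPy 1.17.1 and Matplotlib 3.10.9.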

Additional observations from a re-analysis of the deposited data

How the results depend on the processing

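The 10 results on shares, counts and densities were recalculated with 1 site per region number of the list, with touching sites merged, with the 5′ end as position, without sites in more than 1 protein-coding gene, with at least 2 sites, with KIF2A classed as mitotic and KIF21A and KIF21B in place of KIFC3 as transport, without KIF5B, and, chosen after seeing the data, with genes of listed strand only. All 61 recalculations stayed within the interval of a share or median, or 1.5 times a count. Of these, 32 equalled the first value, among them all 10 without shared sites, since 0 kinesin sites were shared. The interval of the transport density (0.0205 to 1.14) is too wide for staying within it to show stability. For the share of kinesin sites in the last 10% of the gene, leaving out KIF13A was not among the 61. It moved that share from 13.5% to 10.5%, below the interval of 10.8% to 16.8%, so the share depended on KIF13A. The share of mitotic genes with a site lay between 80.0% and 85.7%, that of transport genes between 45.5% and 53.3%. The number of sites in transport genes fell from 154 to 103 without the genes whose strand came from their sites. Leaving out single replicates could not be done on a merged table. No paired analysis was possible because replicates are not listed apart. As read numbers are lacking, nothing ranks one site above another.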

Other observations

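Dynein and its activator dynactin move cargo and chromosomes in the direction opposite to most kinesins. Of 9 of their genes on a chosen list, 8 had sites, against a background of 38.0% of protein-coding genes. The list leaves out other subunits, so it does not describe the whole complexes. DYNC1H1, the dynein heavy chain, had 76 sites, more than any kinesin, and the light intermediate chain DYNC1LI2 had 33. DYNC1I1, an intermediate chain known mainly from neurons, had 0 in 338 kb, whereas DYNC1I2, the form found in most tissues, had 22. These 2 were chosen after their values were seen. DCTN2, a dynactin subunit whose gene lies next to KIF5A on chromosome 12, had 17 sites.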
